A study of Homo sapiens with 6 samples.

Results

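The translation initiation factors (eIFs) and elongation factors (eEFs) are the proteins that load ribosomes onto mRNA and move them along it. Their genes were read here in 22Rv1-ABHD5 cells, a line from a human prostate cancer that grows despite castration, here with an ABHD5 transgene behind a doxycycline (Dox)-inducible promoter on a lentiviral vector. The genes were chosen by symbol alone, as every row of the count table that begins with EIF1 to EIF6 or EEF, without EIF4EBP1 and EIF4EBP2, symbols ending in P and a number, and antisense rows. This gave 66 genes of 27470 in the table. The rule removed 8 rows, among them EIF4EBP3, which is a protein-coding gene whose symbol ends like that of a pseudogene.

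RNA was sequenced from the 3ʹ end in 3 libraries of cells grown without Dox (controls) and 3 libraries of the same line grown with Dox, after 48 h according to the labels. Both groups carry the vector and were selected with G418, and all cells belong to 1 engineered line, so that Dox and the ABHD5 that it induces cannot be told apart. The labels do not say whether the replicates were separate cultures, and p-values then measure only the spread between these libraries, which may be technical.

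Initiation begins when eIF2, carrying GTP and the initiator tRNA, joins eIF1, eIF1A, eIF3 and eIF5 on the small ribosomal subunit. The eIF4F complex binds the mRNA cap through eIF4E, holds the mRNA on the scaffold eIF4G and unwinds it with the helicase eIF4A. After the start codon is found, eIF5B joins the large subunit, and eEF1A and eEF2 then deliver tRNAs and move the ribosome. The pathway is a main output of mTORC1, which frees eIF4E from the 4E-BP repressors and restrains eEF2 kinase through p70S6K. mTORC1 also controls the translation of mRNAs that start with a terminal oligopyrimidine (TOP) sequence, a C at the cap followed by a run of C and T, among which are those of eEF1A1 and eEF2.

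Start regions are shown for 7 of the 9 members whose level changed and for the TOP standards EEF1A1 and EEF2, to set the letters at the start beside the direction of change. Each runs 5ʹ to 3ʹ from 45 bases before to 15 bases after the RefSeq start on GRCh38.p14. Capitals mark a C followed by at least 4 bases that are C or T, beginning within 10 bases of the start, and the letters TATAAA where these lie 15 to 40 bases before it.
EEF1A1 (chr6:73521018-73521077, minus strand): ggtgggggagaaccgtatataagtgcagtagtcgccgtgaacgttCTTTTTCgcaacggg
EEF2 (chr19:3985449-3985508, minus strand): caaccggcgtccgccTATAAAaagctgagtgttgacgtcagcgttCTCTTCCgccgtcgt
EIF4A2 (chr3:186783532-186783591, plus strand): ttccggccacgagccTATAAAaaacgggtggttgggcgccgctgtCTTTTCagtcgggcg
EIF2A (chr3:150546742-150546801, plus strand): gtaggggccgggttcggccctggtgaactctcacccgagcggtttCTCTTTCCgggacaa
EIF2AK3 (chr2:88627450-88627509, minus strand): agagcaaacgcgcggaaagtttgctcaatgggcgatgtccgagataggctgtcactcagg
EIF4G1 (chr3:184314561-184314620, plus strand): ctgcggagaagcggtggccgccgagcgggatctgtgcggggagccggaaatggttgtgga
EIF3B (chr7:2354782-2354841, plus strand): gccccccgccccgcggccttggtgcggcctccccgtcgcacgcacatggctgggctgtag
EIF1AX (chrX:20141824-20141883, minus strand): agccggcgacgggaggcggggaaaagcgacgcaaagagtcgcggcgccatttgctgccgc
EEF2K (chr16:22206233-22206292, plus strand): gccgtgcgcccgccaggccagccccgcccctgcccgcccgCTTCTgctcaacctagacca

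A run that begins exactly at the start stood in EEF1A1, EEF2, EIF4A2 and EIF2A. It stood in none of the 4 printed members that fell, and not in EIF2AK3, which rose. Of the 66 members, 53 had an entry among the RefSeq promoters, and 11 of these (20.8%) held such a run at the start. The share was 4.04% of all 27305 promoters and 5.45% of those of genes tested here. Of 6 members with a known TOP sequence and a promoter entry, 4 held a run at the start. EEF1B2 and EEF1G, not printed, held none.

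The libraries held 3394672 to 7271771 counts on genes. Reads that hit no gene were 32.5% to 34.6% of the reads listed in the controls and 35.6% to 39.5% with Dox. ABHD5 itself had 63.5, 58.0 and 62.8 CPM (counts scaled to library size with TMM factors) in control replicates 1 to 3 and 125.9, 130.8 and 91.7 with Dox, which is a log2 fold change of 0.91 with a standard error (SE) of 0.15 (adjusted p = 1.98e-04, quasi-likelihood test of edgeR). Whether these reads came from the transgene or from the cell's own gene was not tested. The 9 markers of prostate epithelial lines used here, such as HOXB13 and FOXA1, were counted in every library. Their summed level was 1043 to 1148 CPM in the controls and 647 to 805 with Dox, and 2 of 10 markers of other cells, of fibroblasts, leukocytes and endothelium, exceeded 3 counts in every library. These were the fibroblast markers COL1A1, which passed as higher with Dox (mean 2.43 against 5.49 CPM, log2 fold change 1.22, adjusted p = 0.0313, edgeR), and LUM, which did not pass (-0.78, adjusted p = 0.190, edgeR). The 4 fibroblast markers summed to 4.96 to 9.43 CPM in the controls and 6.12 to 9.98 with Dox. The part of these differences in the results below was not tested. In bulk RNA, fewer cells with a transcript and less of it per cell cannot be told apart.

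The comparison asks which translation factor mRNAs differ when ABHD5 is induced. The helicase gene EIF4A2 and the elongation factor gene EEF1A2 rose 1.81-fold and 1.78-fold. EIF2AK3, which encodes the stress kinase PERK, and EIF2A rose 1.48-fold and 1.33-fold. The scaffold gene EIF4G1, EIF1AX, EEF2K, EIF3B and EEF2KMT fell, and were 1.30-fold, 1.31-fold, 1.34-fold, 1.36-fold and 1.78-fold higher in the controls. Of the 66 members, 61 passed the filter on low counts, and 9 of these (14.8%) had an adjusted p under 0.05, with 4 higher and 5 lower. Among all 12233 genes tested, 25.5% passed in either direction, 11.9% as higher and 13.7% as lower. At an unadjusted p under 0.05 in edgeR stood 17 of the 61 members and 4507 of the 12233 genes. The members' median log2 fold change was -0.036, against 0.016 for all genes, and the median size of the change was 0.21 against 0.30. The libraries of the conditions did not overlap for 18 of the 61 members, with Dox above in 8 and below in 10, against 39.5% of all genes tested.

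**Figure D1:**
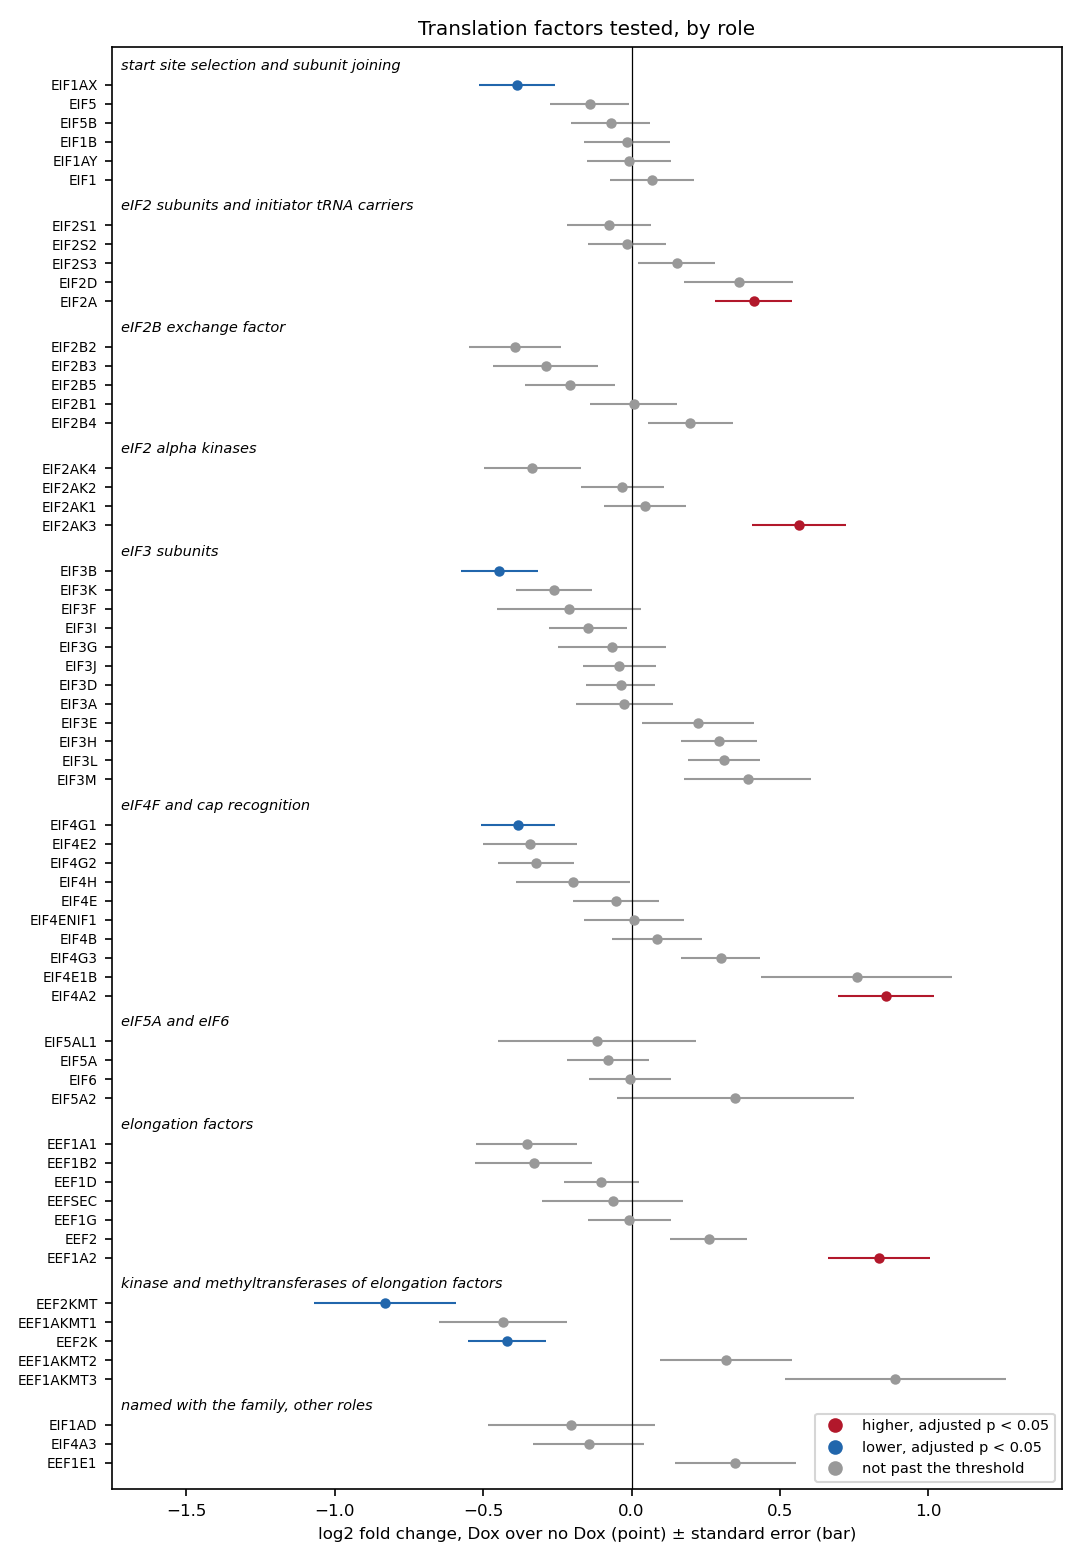
Log2 fold change (x axis, Dox over no Dox) with its standard error for the 61 translation factors tested, in groups by role (y axis). Red points are the 4 genes that rose, blue points the 5 that fell, and gray points did not pass an adjusted p of 0.05. The points span -0.83 (EEF2KMT) to 0.89 (EEF1AKMT3).

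**Figure D2:**
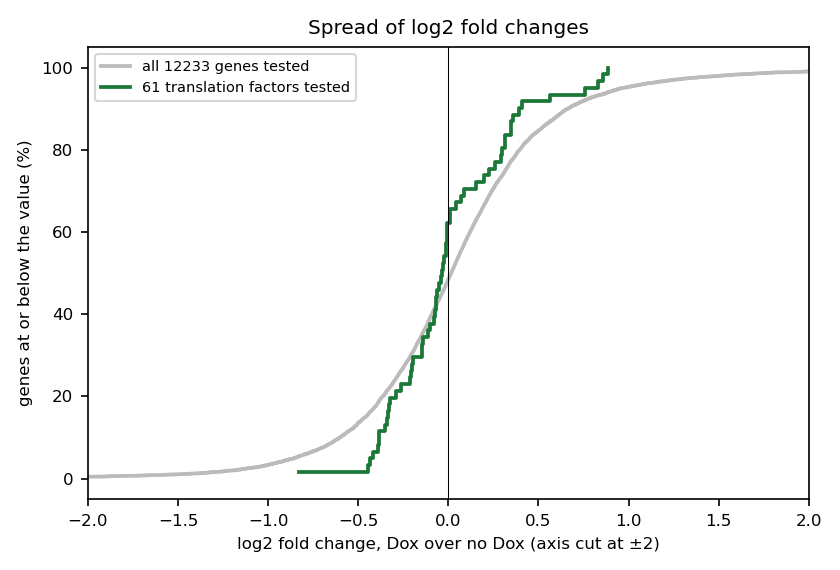
Cumulative share of genes (y axis, percent) against log2 fold change (x axis, cut at -2 and 2) for all 12233 genes tested (gray) and the 61 translation factors tested (green). The green curve spans -0.83 to 0.89 and crosses 0 with 38 of 61 members below it.

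The split of rises and falls depended on the scaling. With library totals in place of TMM, the median of all genes moved from 0.016 to 0.14 on the log2 scale. The 9 members then called were 8 higher and 1 lower, of which 5 were also called with TMM, and EEF2, EIF3H, EIF3L and EIF4G3 were added as higher. With upper-quartile normalization 7 members were called, 5 higher and 2 lower, of which 6 were also called with TMM. None of the 9 members called with TMM changed sign. EIF4A2, EEF1A2, EIF2AK3, EIF2A and EEF2KMT passed under each of these scalings, whereas EIF4G1, EIF1AX and EEF2K passed under neither and EIF3B failed with library totals. The 66 members together took 1.04% to 1.07% of all counts in the controls and 1.09% to 1.17% with Dox. Without EEF2 these shares were 0.925% to 0.931% and 0.939% to 0.996%, so on these raw shares each Dox library lay above each control library. Scaled with the TMM factors the separation was lost, with 1.08% to 1.12% in the controls and 1.03% to 1.12% with Dox, and without EEF2 it turned, with 0.960% to 0.977% in the controls and 0.893% to 0.955% with Dox.

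Among the genes of the cap-binding complex eIF4F and its partners, 10 of 12 were tested, 1 rose and 1 fell. EIF4A2, a helicase of the eIF4A family on chromosome 3 from 186783205 to 186789897 of hg38, had 97.2, 77.5 and 108.9 CPM in control replicates 1 to 3. With Dox it had 155.5, 143.9 and 214.6 CPM. Each Dox library thus exceeded each control library, with Dox replicate 3 the highest. Its mean rose from 94.5 ± 15.9 to 171.3 ± 37.9 CPM (mean ± SD over 3 libraries each), a difference on the log2 scale of 0.86 (SE 0.16, adjusted p = 7.59e-04, edgeR). The value was 0.66 to 0.97 with each library left out in turn and stayed past the threshold. The last 300 exonic bases of EIF4A2 share 18 with exons of RFC4 on the opposite strand.

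EIF4A1, the other eIF4A of the cytoplasmic complex, was listed at 0 counts in all 6 libraries. A count of 0 allows up to 3 counts per library, which is 0.394 to 0.930 CPM. In GENCODE 44 all of its last 300 exonic bases also lie in exons of SENP3-EIF4A1, a readthrough gene on the same strand, which was also at 0. Reads that fell on more than 1 gene were 3.05% to 3.37% of the reads listed and were assigned to none. The balance of EIF4A1 and EIF4A2 therefore cannot be read from these counts.

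EIF4G1, the main scaffold of eIF4F, lies on chromosome 3 from 184314495 to 184335358. It had 868.8, 804.1 and 751.0 CPM in the controls and 665.6, 588.6 and 604.2 with Dox, so that every Dox library lay below every control library. Its mean fell from 808 ± 59.0 to 619 ± 40.7 CPM (mean ± SD over 3 libraries each), a difference on the log2 scale of -0.38 (SE 0.12, adjusted p = 0.0304, edgeR). This call was a close one. It was lost without control replicate 1 or 2 (-0.34 and -0.39, adjusted p = 0.131 and 0.0678, edgeR) and without Dox replicate 1, 2 or 3 (-0.44, -0.35 and -0.37, adjusted p = 0.0556, 0.0615 and 0.0564, edgeR). It was also lost under library totals (-0.26, adjusted p = 0.121) and upper-quartile normalization (-0.33, adjusted p = 0.0594) with edgeR.

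The other scaffold genes did not pass. EIF4G2, which lacks the eIF4E-binding part, had 741 to 912 CPM in the controls and 609 to 700 with Dox (log2 fold change -0.32, adjusted p = 0.0740, edgeR) and passed with DESeq2 (adjusted p = 0.0458). EIF4G3 had 156.5 to 164.1 CPM in the controls and 168.3 to 231.5 with Dox (0.30, adjusted p = 0.110, edgeR). It passed with library totals (adjusted p = 0.0248) and without Dox replicate 3 (0.40, adjusted p = 0.0331, both edgeR). The libraries of the conditions did not overlap for either gene.

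Cap-binding proteins gave no call. EIF4E had a log2 fold change of -0.053 (SE 0.14, adjusted p = 0.830, edgeR), with 45.6 to 53.2 CPM in the controls and 43.7 to 53.1 with Dox. For EIF4E2, a relative of eIF4E tied to translational repression, the value was -0.34 (adjusted p = 0.129, edgeR), and it passed without Dox replicate 2 (-0.53, adjusted p = 0.0135, edgeR). EIF4E1B had 2.87 to 3.49 CPM in the controls and 5.12 to 6.09 with Dox (0.76, adjusted p = 0.0939, edgeR). EIF4E3 did not pass the filter, with 0 to 8 counts in the controls and 10 to 29 with Dox. EIF4B and EIF4H, which help the helicase, had 0.086 and -0.20 from transcripts that occur to 99.8% and 97.7% at other sites, and EIF4ENIF1, the nuclear import partner of eIF4E, had 0.0067.

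**Figure D3:**
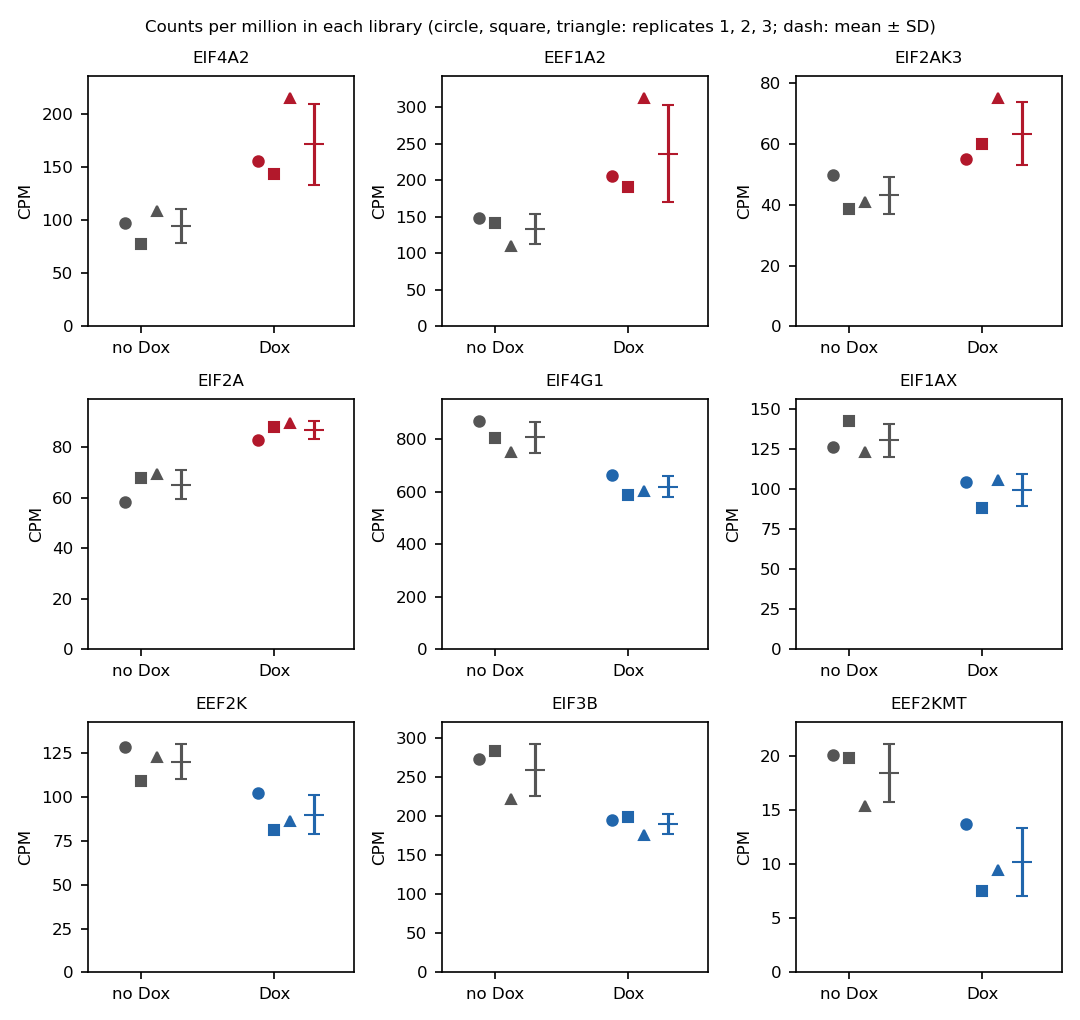
CPM (y axis, from 0) in each library for the 9 members with an adjusted p under 0.05, without and with Dox (x axis). Points are libraries (circle, square and triangle for replicates 1, 2 and 3) and dashes with bars are means ± SD, and in none of the 9 panels do the libraries of the conditions overlap.

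Genes of the elongation cycle showed 1 rise among 7 tested. EEF1A2, the eEF1A form that is typical of neurons and muscle and is found in some tumors, lies on chromosome 20 from 63488013 to 63499239. It had 148.4, 142.0 and 110.5 CPM in the controls and 206.2, 191.2 and 312.4 with Dox. Every Dox library exceeded every control library, and Dox replicate 3 stood above the others. The mean rose from 133.6 ± 20.3 to 236.6 ± 66.1 CPM (mean ± SD over 3 libraries each), a difference on the log2 scale of 0.83 (SE 0.17, adjusted p = 0.00162, edgeR). Without Dox replicate 3 it was 0.58 (adjusted p = 0.00524, edgeR), the lowest value with any 1 library left out.

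EEF1A1, the common form, had 36.0, 35.0 and 32.3 CPM in the controls and 28.1, 31.4 and 22.2 with Dox, a log2 fold change of -0.35 that did not pass (SE 0.17, adjusted p = 0.140, edgeR). Of its GENCODE transcript, 49.7% also occurs, at 97% identity or more over at least 100 bases, at other sites of the genome, though none of the last 300 bases does. Although it is the common form, it was counted below EEF1A2 in every library. How many of its reads were lost to other sites was not tested, so that its counts, and its ratio to EEF1A2 below, are uncertain. EEF2, the translocase, had 1240, 1432 and 1286 CPM in the controls and 1648, 1683 and 1409 with Dox. The highest control library exceeded Dox replicate 3, and the log2 fold change of 0.26 did not pass (SE 0.13, adjusted p = 0.154, edgeR), although it did with library totals (0.38, adjusted p = 0.0332, edgeR). The subunits of eEF1B, which reloads eEF1A with GTP, had -0.33 (EEF1B2), -0.10 (EEF1D) and -0.0072 (EEF1G), and the selenocysteine factor gene EEFSEC had -0.064. None of these 4 passed. The transcripts of EEF1B2 and EEF1G occur to 94.6% and 97.6% at other sites, the last bases included, so that their counts are uncertain.

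The genes that modify elongation factors held 2 falls among 5 tested. EEF2K, the kinase that blocks eEF2, lies on chromosome 16 from 22206278 to 22288738 and had 128.3, 109.2 and 122.9 CPM in the controls and 102.2, 81.3 and 86.2 with Dox. Its change was, in log2 units, -0.42 (SE 0.13, adjusted p = 0.0271, edgeR). No Dox library reached the lowest control library. All of its last 300 exonic bases lie opposite an exon of an unnamed antisense gene in GENCODE 44, and whether the authors counted by strand is not given in the sources used here. The call was lost without control replicate 1 or 3 (-0.39 and -0.40, adjusted p = 0.111 and 0.0710) and without Dox replicate 2 or 3 (-0.36 and -0.39, adjusted p = 0.0668 and 0.0591, all edgeR). It was also lost with library totals (-0.30, adjusted p = 0.102) and upper-quartile normalization (-0.36, adjusted p = 0.0505, both edgeR).

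EEF2KMT, which methylates a lysine of eEF2, lies on chromosome 16 from 5084284 to 5097795 and showed the largest fall of the 61 members tested. It had 20.1, 19.8 and 15.4 CPM in the controls and 13.7, 7.51 and 9.46 with Dox, again without overlap. In counts these were 77, 64 and 88 against 63, 27 and 72, so that the depth behind the value is small. On the log2 scale the change was -0.83 (SE 0.24, adjusted p = 0.0163, edgeR), and the call was lost without control replicate 1 (-0.78, adjusted p = 0.0649, edgeR). Of its transcript, 21.9% also occurs at other sites, though none of the last 300 bases does.

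The lysine methyltransferase genes of eEF1A did not pass. EEF1AKMT3 had the highest log2 fold change of the 61 members tested, 0.89 (SE 0.37, adjusted p = 0.0901, edgeR), from 9 to 26 counts in the controls and 12 to 74 with Dox, and its groups overlapped. It passed without Dox replicate 2 (1.16, adjusted p = 0.0165, edgeR). EEF1AKMT1 and EEF1AKMT2 had -0.43 and 0.32.

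Paralogues were compared as log2 ratios of counts within each library, which need no scaling between libraries. The level of such a ratio depends on how much of each gene can be mapped uniquely, and only its difference between conditions is read. Of 6 pairs, the ratio of EEF1A1 to EEF1A2 differed most. It was -2.04, -2.01 and -1.77 in the controls and -2.87, -2.60 and -3.81 with Dox, a difference of -1.15 (exact two-sided permutation test, p = 0.1, adjusted p = 0.3 over the 6 pairs). The ratio of EIF4G1 to EIF4G3 was 2.47, 2.29 and 2.26 in the controls and 1.81, 1.35 and 1.84 with Dox, a difference of -0.67 (same exact permutation test, p = 0.1, adjusted p = 0.3).

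With 3 libraries against 3 this test cannot go below 0.1, so neither pair could pass. The libraries of the conditions did not overlap for these 2 pairs and overlapped for the other 4. Without Dox replicate 3 the EEF1A1 to EEF1A2 difference was -0.79, and without Dox replicate 2 the EIF4G1 to EIF4G3 difference was -0.51. The differences were 0.068 for EIF1 over EIF1B, 0.29 for EIF4E over EIF4E2, -0.062 for EIF4G1 over EIF4G2 and -0.37 for EIF5A over EIF5A2 (exact permutation test, p = 0.7, 0.5, 0.6 and 0.5).

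**Figure D4:**
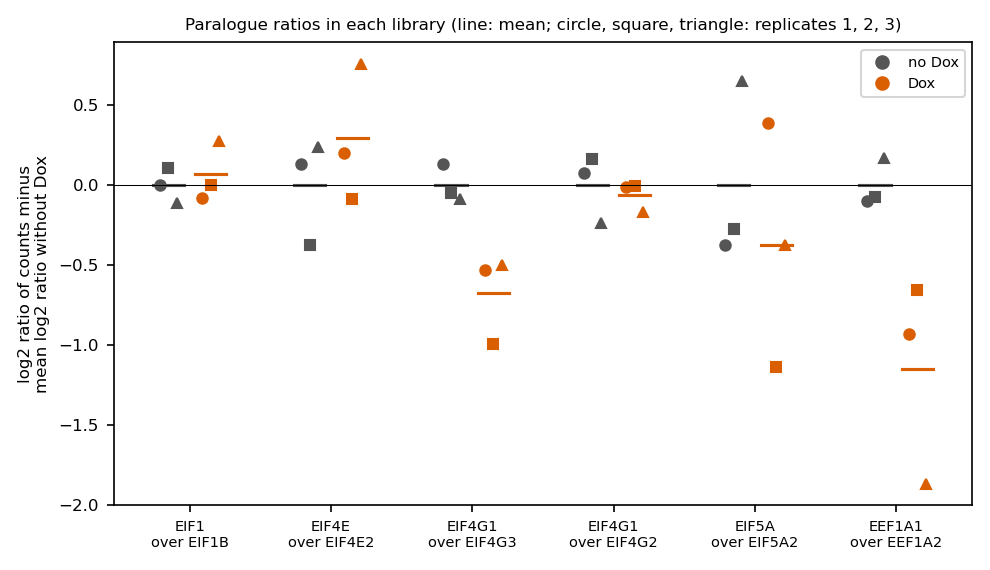
Log2 ratio of the counts of 2 paralogues in each library, minus the mean of the control libraries (y axis), for 6 pairs (x axis). Points are libraries and lines are means, and the Dox points lie below all control points for EIF4G1 over EIF4G3 and EEF1A1 over EEF1A2.

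Ternary complex formation begins with eIF2, whose subunits gave no call. EIF2S1, EIF2S2 and EIF2S3, the alpha, beta and gamma subunits, had log2 fold changes of -0.076, -0.015 and 0.15 (SEs 0.14, 0.13 and 0.13, adjusted p = 0.736, 0.950 and 0.433, edgeR). EIF2A, a separate protein that can bring initiator tRNA to the ribosome and must not be confused with eIF2 alpha, rose. It lies on chromosome 3 from 150546678 to 150586016 and had 58.5, 67.9 and 69.3 CPM in the controls and 82.9, 87.9 and 89.6 with Dox. The Dox libraries lay close together above all controls. Its change was, in log2 units, 0.41 (SE 0.13, adjusted p = 0.0271, edgeR).

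This call on EIF2A was lost without control replicate 1 or 2 (0.32 and 0.43, adjusted p = 0.168 and 0.0565) and without Dox replicate 1 or 3 (0.44 and 0.38, adjusted p = 0.0598 and 0.0588, all edgeR). EIF2D, another tRNA carrier, had 0.36 and did not pass (adjusted p = 0.167, edgeR), except without Dox replicate 2 (0.49, adjusted p = 0.0490, edgeR). The subunits of eIF2B, which recharges eIF2 with GTP, ranged from -0.39 (EIF2B2) to 0.20 (EIF2B4), and none of the 5 passed with edgeR or DESeq2, with 1 at an unadjusted p under 0.05. EIF2B1, EIF2B3 and EIF2B5 had 0.0065, -0.29 and -0.21. EIF2B2 had 36.6 to 45.9 CPM in the controls and 28.9 to 33.4 with Dox (SE 0.15, adjusted p = 0.0719, edgeR), and EIF2B4 overlapped between the conditions (SE 0.14, adjusted p = 0.337).

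Of the 4 kinases that phosphorylate eIF2 alpha and so slow initiation under stress, 1 rose. EIF2AK3 encodes PERK, the kinase that senses unfolded protein in the endoplasmic reticulum, and lies on chromosome 2 from 88556741 to 88691518. It had 49.9, 38.5 and 40.8 CPM in the controls and 55.0, 60.1 and 75.0 with Dox. The groups did not overlap, though control replicate 1 and Dox replicate 1 lay close. On the log2 scale the change was 0.56 (SE 0.16, adjusted p = 0.0140, edgeR). It lost its call without control replicate 2 or 3 (0.49 and 0.52, adjusted p = 0.0574 and 0.0518) and without Dox replicate 3 (0.42, adjusted p = 0.0693, all edgeR).

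The other kinases did not pass. EIF2AK4, which encodes the amino acid sensor GCN2, had 103.7, 136.8 and 107.0 CPM in the controls and 96.6, 110.8 and 69.6 with Dox (-0.33, SE 0.16, adjusted p = 0.148, edgeR). It passed without Dox replicate 2 (-0.49, adjusted p = 0.0337, edgeR). EIF2AK1 (HRI) and EIF2AK2 (PKR) had 0.045 and -0.032.

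The eIF3 complex, the largest of the initiation factors, is listed with 14 genes, of which 12 were tested and 1 fell. EIF3B, a core subunit on chromosome 7 from 2354086 to 2380745, had 272.4, 282.5 and 221.2 CPM in the controls and 194.8, 199.0 and 175.9 with Dox. All Dox libraries lay below all controls. Its change was, in log2 units, -0.45 (SE 0.13, adjusted p = 0.0174, edgeR). The call was lost without control replicate 1 or 2 (-0.42 and -0.38, adjusted p = 0.0777 and 0.0759), without Dox replicate 1 (-0.47, adjusted p = 0.0545) and with library totals (-0.32, adjusted p = 0.0689, all edgeR).

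Subunits of eIF3 lay on both sides of 0. The other 11 tested ranged from -0.26 (EIF3K) to 0.39 (EIF3M, SE 0.21, adjusted p = 0.197, edgeR), with 7 below and 4 above 0. EIF3H had 135.3, 126.8 and 140.5 CPM in the controls and 152.4, 153.6 and 187.3 with Dox. EIF3L had 103.7, 116.6 and 117.5 CPM in the controls and 134.0, 140.8 and 144.7 with Dox. Both genes were higher in every Dox library than in any control without passing (0.29 and 0.31, adjusted p = 0.0998 and 0.0678, edgeR). With library totals both passed (adjusted p = 0.0224 and 0.0128, edgeR), and EIF3L also did with upper-quartile normalization (adjusted p = 0.0329, edgeR). EIF3A, the largest scaffold subunit, had -0.024, and EIF3E, EIF3I and EIF3J had 0.22, -0.15 and -0.042. For EIF3D, EIF3F and EIF3G the values were -0.036, -0.21 and -0.066.

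EIF3C and EIF3CL, near-identical copies on chromosome 16, were at 0 counts in all 6 libraries, with the same allowance of 3 counts. Of their transcripts, 86.1% and 86.2% occur at other sites, the last 300 bases included. The table lists no reads with more than 1 alignment.

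Start codon selection and subunit joining showed 1 fall among 6 genes tested. EIF1AX, the X-linked gene of eIF1A, which keeps the scanning ribosome open, lies on chromosome X from 20124525 to 20141838. It had 126.4, 142.3 and 123.1 CPM in the controls and 104.6, 88.2 and 105.6 with Dox. No Dox library reached the controls. Its change was, in log2 units, -0.39 (SE 0.13, adjusted p = 0.0341, edgeR). The call was lost without control replicate 1 or 2 (-0.42 and -0.33, adjusted p = 0.0716 and 0.126) and without Dox replicate 1 or 2 (-0.43 and -0.31, adjusted p = 0.0716 and 0.0951, all edgeR). It was lost as well with library totals (-0.26, adjusted p = 0.133) and upper-quartile normalization (-0.33, adjusted p = 0.0656, both edgeR). Of the EIF1AX transcript, 71.4% also occurs elsewhere, though none of the last 300 bases.

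EIF1AY, its Y-linked copy, had a log2 fold change of -0.0087. EIF1, which guards against wrong start codons, had the highest value of this group, 0.070 (SE 0.14, adjusted p = 0.762, edgeR). EIF1B had -0.014, and EIF5 and EIF5B, which trigger GTP hydrolysis by eIF2 and join the large subunit, had -0.14 and -0.071.

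EIF5A, whose transcript occurs to 96.8% at other sites, encodes the hypusine-bearing factor that helps ribosomes through difficult peptide bonds and had 129.6, 108.5 and 116.3 CPM in the controls and 112.0, 93.2 and 128.9 with Dox (-0.079, SE 0.14, adjusted p = 0.720, edgeR). EIF5A2 had 0.35 from 12 to 40 counts per library (SE 0.40, adjusted p = 0.568, edgeR), which leaves a wide error. EIF5AL1, a copy of EIF5A with 99.8% of its transcript at other sites, had -0.12 (SE 0.33, adjusted p = 0.838). EIF6, which keeps the ribosomal subunits apart, had -0.0049, and all 4 genes overlapped between the conditions. None of them passed with edgeR or DESeq2, or at an unadjusted p under 0.05 in edgeR.

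Genes that carry the family name but act elsewhere gave no call with edgeR or DESeq2, with 0 of 3 at an unadjusted p under 0.05 in edgeR. EIF4A3, a helicase of the exon junction complex, had -0.14, EIF1AD had -0.20 (SE 0.28, adjusted p = 0.645, edgeR), and EEF1E1, a scaffold of the aminoacyl-tRNA synthetase complex, had 0.35 (SE 0.21, adjusted p = 0.231, edgeR). EEF1E1 passed without control replicate 3 (0.63, adjusted p = 0.0404, edgeR). The readthrough EEF1E1-BLOC1S5 was at 0 counts in all 6 libraries.

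The members with a known TOP sequence lay on both sides of 0. Of 9 such genes (EEF1A1, EEF1B2, EEF1D, EEF1G, EEF2, EIF3E, EIF3F, EIF3H and EIF4B), 0 passed, and none passed with DESeq2. An unadjusted p under 0.05 in edgeR was held by 1 of the 9, against 4507 of all 12233 genes tested. The log2 fold changes of the 9 genes ran from -0.35 (EEF1A1) to 0.29 (EIF3H), with a median of -0.0072 and 4 above 0. These are mRNA levels, whereas mTORC1 controls TOP mRNAs in their translation, which was not measured here. The letters at the RefSeq start do not recover this list, as EEF1B2 and EEF1G held no run there. By these letters in place of the list, the 11 members with a pyrimidine run at the start had a median of 0.15, with EIF4A2 and EIF2A higher and 0 lower. The 38 tested members with a promoter and no such run had a median of -0.073, with 1 higher and 4 lower.

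Across all genes tested, the medians were 0.018 for 509 genes with a run at the start and 0.015 for 8823 without. Of the former 61 were higher and 60 lower, and of the latter 1061 and 1241. A match of letters is a description and not a mapped cap site. TATAAA stood before the start in 2 members, EIF4A2 and EEF2, which is 3.77% of 53 against 1.34% of tested genes.

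Other motifs were searched on both strands of the 300-base promoters. The E-box CACGTG was held by 13 of 53 members (24.5%) against 10.5% of promoters of tested genes, with 0 of the 3 risen members that had a promoter and 2 of the 4 fallen ones. The ETS letters CCGGAAG were held by 24.5% against 20.3%, with 2 of the 3 risen members and 0 of the 4 fallen ones. Those of YY1 (AAGATGGCG) were held by 5.66% against 4.27%, and by none of the risen or fallen members. The palindromic NRF1 motif was in 0 of the 53 and in 2.39% of promoters of tested genes.

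Other translation genes, listed by role, placed these changes among their regulators. Of 44 genes found in the table, 41 were tested, 2 rose and 3 fell (12.2% called, against the 25.5% of all genes). With DESeq2 in place of edgeR, 6 of the 41 were called. The 3 falls and 1 of the 2 rises lay among partners of eIF2 and its kinases, of which 6 were tested and 2 were not called. The list was chosen with earlier results of these data known, so this grouping is a description and not a test. GCN1, the co-activator that GCN2 needs, had 203.5, 215.2 and 211.2 CPM in the controls and 159.4, 149.4 and 136.7 with Dox (log2 fold change -0.50, SE 0.12, adjusted p = 0.00515, edgeR). IMPACT, which competes with GCN2 for GCN1, had 24.0, 22.9 and 31.4 CPM in the controls and 39.6, 45.4 and 48.7 with Dox (0.76, SE 0.17, adjusted p = 0.00286, edgeR). The mRNA of the activator was lower, and that of the inhibitor higher, in every Dox library than in any control. The activity of GCN2 was not measured here.

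BZW1 and BZW2, mimics of eIF5 that compete for eIF2, fell by 0.61 and 0.45 on the log2 scale (adjusted p = 0.0213 and 0.0103, edgeR). BZW1 lost its call without control replicate 2 (-0.53, adjusted p = 0.0788) or Dox replicate 1 (-0.50, adjusted p = 0.0943), and both genes lost it with library totals (-0.49 and -0.32, adjusted p = 0.0577 and 0.0503, all edgeR).

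TPT1, which encodes a protein that binds eEF1A, had 788.8, 836.1 and 937.4 CPM in the controls and 1544, 1417 and 1421 with Dox, a log2 fold change of 0.77 (SE 0.13, adjusted p = 2.08e-04, edgeR). The 4E-BP and mTORC1 output list gave no call among 6 tested with edgeR, and 0 at an unadjusted p under 0.05 in edgeR. Its log2 fold changes ran from -0.62 to 0.093, with 5 of the 6 below 0. For 2 of the 6 every Dox library lay below every control. Among all genes tested, the libraries did not overlap, in either direction, for 39.5%. The values of this list are mRNA levels, and the phosphorylation through which mTORC1 acts on its targets was not measured here. In this line the paper reported less p70S6K phosphorylation, at an earlier time, and less protein synthesis with Dox. The 8 tested genes of hypusine and diphthamide synthesis, the modifications of eIF5A and eEF2, all lay above 0, from 0.083 to 0.36. None passed with edgeR, or at an unadjusted p under 0.05 in edgeR. The libraries of the conditions overlapped for all 8. Of all 12233 genes tested, 6301 lay above 0.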

How the data were processed

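QuantSeq 3ʹ libraries of 3 control and 3 Dox samples were analyzed. The kit is REV in the published methods but FWD in the labels. The authors demultiplexed with CASAVA 1.8.2, mapped to hg38 with STAR and deposited raw read counts per gene symbol. The submitters' processing notes also list HTSeq and edgeR, and the annotation and strand setting are not given in the sources used here. The authors also deposited a non-whole normalized signal per library, used only as an alternative (log2 with a pseudocount of 1, limma 3.58.1). Rows that name no gene were left out: 32.5% to 39.5% of reads fell on no gene and 3.05% to 3.37% were ambiguous.

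Counts were tested with edgeR 4.0.16 (R 4.3.3) over the 12233 genes that passed filterByExpr, with TMM normalization, the quasi-likelihood test and Benjamini-Hochberg adjusted p under 0.05. Standard errors are the size of the log2 fold change over the square root of F. Replicates of a condition differed by more than sampling noise (chi-square over its degrees of freedom 4.24 to 12.6). On simulated counts of 12233 genes for this comparison, the test found 77% of genes made to change 2-fold and 95% of those at 4-fold, with 8.02% of its calls false. There only a small part of the genes changed, as many up as down. Each tested member changed by less than 2-fold, so these shares do not describe the members. DESeq2 1.42.0 was an alternative, beside other normalizations and filters, a replicate block and leaving out each library. The limit of 3 counts covers counting error only, as reads carry no molecular identifiers.

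The members and lists were chosen with earlier results of these data known. By the naming rule any member could be named, with full statistics for called members and the highest and lowest of each role, and other translation genes only with an adjusted p under 0.05. Of 48 other genes listed, 44 were found, and the other 4 are older names of members. Coordinates are those of GENCODE 44 on hg38, with all 66 members matched. Canonical transcripts were aligned to the genome with BLAST 2.17.0. Promoter sequences are from RefSeq (GRCh38.p14), with 53 members matched, and the motifs were chosen after the counts were seen. Permutation tests used scipy 1.17.1. A further prostate marker of the list is not reported here.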

Additional observations from a re-analysis of the deposited data

How the results depend on the processing

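The 9 calls among translation factors numbered 3 to 10 when 1 library at a time was left out: 3 without control replicate 1, 4 without control replicate 2 and 5 without Dox replicate 1. Rises were 2 to 6 and falls 0 to 4 in these fits. Falls were 2 without control replicate 2, 2 without Dox replicate 1 and 3 without Dox replicate 3. Without control replicate 1, edgeR called 0 members lower, with 11 lower at an unadjusted p under 0.05 (DESeq2 was not run on that subset). The main fit had 8 members lower at this unadjusted p. The share over all genes with that replicate left out is not given here. With upper-quartile normalization 2 members were lower, and with library totals alone 8 were higher and 1 lower. This followed the scaling, which moved the median of all genes to 0.071 and 0.14. DESeq2 called 10 members and the deposited normalized values 9, and both held all 9 members called with TMM. The members' median log2 fold change ranged from -0.048 to 0.086 and lay above 0 with upper-quartile normalization and library totals alone. ABHD5 stayed past the threshold throughout (0.81 to 1.06), and other translation gene calls were 4 to 7. No called member changed sign. Changes of sign among members that passed in neither fit were not counted.

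Libraries with the same replicate number were not treated as paired in the main fit. Their deviations from the group means had r of -0.0096, 0.23 and 0.086 across genes. The labels do not say whether these libraries were prepared as pairs, and correlations of mixed sign and size do not decide it. With the replicate block, 11 members were called, 4 higher and 7 lower, which added EIF2AK4 and EIF4E2. The depth leaves members with few counts, such as EIF5A2 and EEF1AKMT3, with standard errors of 0.40 and 0.37.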
